A study of Mus musculus with 6 samples.

Results

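The *Rela* mutant corneal epithelium was examined for 10 genes of TGF beta, activin and BMP signaling. They are the ligand genes *Tgfb1*, *Tgfb2*, *Tgfb3*, *Inhba* and *Bmp7*, the receptor genes *Tgfbr1* and *Tgfbr2*, the inhibitory Smad gene *Smad7*, and the response genes *Tgfbi* and *Id1*. They were taken by symbol from a deposited table of 17554 genes, and all 10 were found in it. Bulk RNA-seq was done on the separated corneal epithelial layer of C57BL/6 mice at 2 months of age, with 3 wild-type control samples (WT) and 3 mutant samples (Rela-/-). The mutants were *Krt14-Cre; Rela f/f* mice, in which a recombinase under the keratin 14 promoter removes the floxed part of *Rela*, the gene of the RelA subunit of NF-κB. The Cre line also acts in the limbus, conjunctiva, meibomian glands, skin, oral mucosa and trachea, so the deletion is not limited to the cornea. Whether the controls carried the floxed alleles or the Cre transgene alone is not given in the sources used here.

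Ligands of this family are secreted as dimers and bind pairs of type I and type II serine/threonine kinase receptors at the cell surface. TGF beta and activin receptors phosphorylate Smad2 and Smad3, whereas BMP receptors phosphorylate Smad1, Smad5 and Smad9, and both groups enter the nucleus with Smad4. TGF beta is held latent in the matrix until it is released, restrains the division of epithelial cells, and takes part in corneal wound healing. Smad7 blocks activated type I receptors and is itself induced by the pathway, so it forms a negative feedback.

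*Rela* served as the check of the labels, and its FPKM (a level scaled by transcript length and by the sample's total) was 36.5, 34.7 and 33.4 in controls and 4.93, 5.53 and 5.72 in mutants. Total expected counts were 19492942 to 19733834 per sample, and no sample pair looked like 1 library deposited again. The first principal component set the genotypes apart and took 65.7% of the variance, and mutant sample 1 stood apart from the other mutant samples on the second. The epithelial genes *Krt12*, *Krt5*, *Aldh3a1* and *Pax6* were abundant in all samples, although *Aldh3a1* was lower in mutants (log2 fold change -0.25, edgeR adjusted p = 0.0466). *Pax6*, which did not pass, was at 209 to 222 FPKM in control samples and at 186 to 202 FPKM in mutant samples. *Krt14*, whose promoter drives the Cre, was at 150 to 203 FPKM in control samples and 1474 to 2204 FPKM in mutant samples. Of 10 keratocyte and fibroblast markers, 3 could be tested. Of these *Dcn* was higher and *Pdgfra* lower in mutants, beside 7.82% of all genes as higher and 5.42% as lower. The summed FPKM of the 10 markers was 2.61 to 3 in control and 2.32 to 5.58 in mutant samples. *Pdgfra* made up most of that sum in control samples, at 2.07 to 2.50 FPKM in control and 1.17 to 1.48 FPKM in mutant samples. *Lum*, *Col1a1*, *Col1a2*, *Col3a1* and *Vim*, too low to be tested, were at most 0.06 FPKM in control samples and reached 0.57, 0.20, 0.19, 0.29 and 0.53 FPKM in mutant sample 1, where each had its highest value (*Col1a1* the same in mutant sample 2). *Kera*, which defines keratocytes, did not exceed 0.07 FPKM in any sample. The summed FPKM of 10 immune markers was 85.3 to 92.2 in control and 112 to 389 in mutant samples. *Itgam* made up most of that sum in control samples, at 63.85 to 67.15 FPKM in control and 50.97 to 94.77 FPKM in mutant samples. *Cd68* came next in control samples, at 17.31 to 21.84 FPKM, and neither gene passed. Of the 10 immune markers 4 could be tested and 1, *S100a8*, was higher, beside 7.82% of all genes. *S100a8* and *Dcn* passed the filter on low counts through their mutant samples only, so the filter itself favoured their direction. *S100a8* was at no more than 0.28 FPKM in control samples and at 264, 49.4 and 32.0 FPKM in mutant samples. The myeloid gene *Lyz2*, too low to be tested, was at most 0.05 FPKM in control samples and at 1.17, 0.64 and 0.19 FPKM in mutant samples. *Ptprc*, which defines leukocytes, did not exceed 0.15 FPKM in any sample. The 5 vascular endothelial markers measured summed to 0.03 to 0.12 FPKM in control and 0.14 to 0.24 FPKM in mutant samples, and the goblet cell gene *Muc5ac* was at most 0.01 FPKM. The conjunctival and goblet cell list summed to 1362 to 1595 FPKM in control and 1074 to 1192 FPKM in mutant samples, with *Krt13* lower. Melanocyte markers (5) and Schwann cell markers (4) gave no call. The part of these markers in the results was not tested. In bulk RNA, fewer cells of a type and less RNA per cell cannot be told apart.

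All 10 genes passed the filter on low counts. *Tgfb3* passed it through its mutant samples only, so the filter itself favoured its direction in the counts below. 4 of the 10 rose in the mutant epithelium at an adjusted p under 0.05 from edgeR's quasi-likelihood test: *Tgfbr2*, *Tgfbi*, *Smad7* and *Id1*. None fell, and the other 6 did not pass. Among all 12667 genes tested, 13.2% passed in either direction, 7.82% as higher and 5.42% as lower in mutants. The fitted log2 fold change was above 0 for 10 of the 10, with a median of 0.72 beside -0.003 for all genes tested. All mutant samples lay above all control samples in normalized CPM for 6 of the 10, beside 17.3% of all genes, and below them for 0 of the 10, beside 16.4%. The 10 genes were chosen with earlier results of these data known, so these counts describe them and are no test of the family. None of the 10 met the stricter thresholds of the study (adjusted p up to 0.001, 2-fold or more), which 1.37% of all genes met. *Tgfbr2* and *Tgfbi* met the limit on p and missed the limit on fold.

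**Figure D1:**
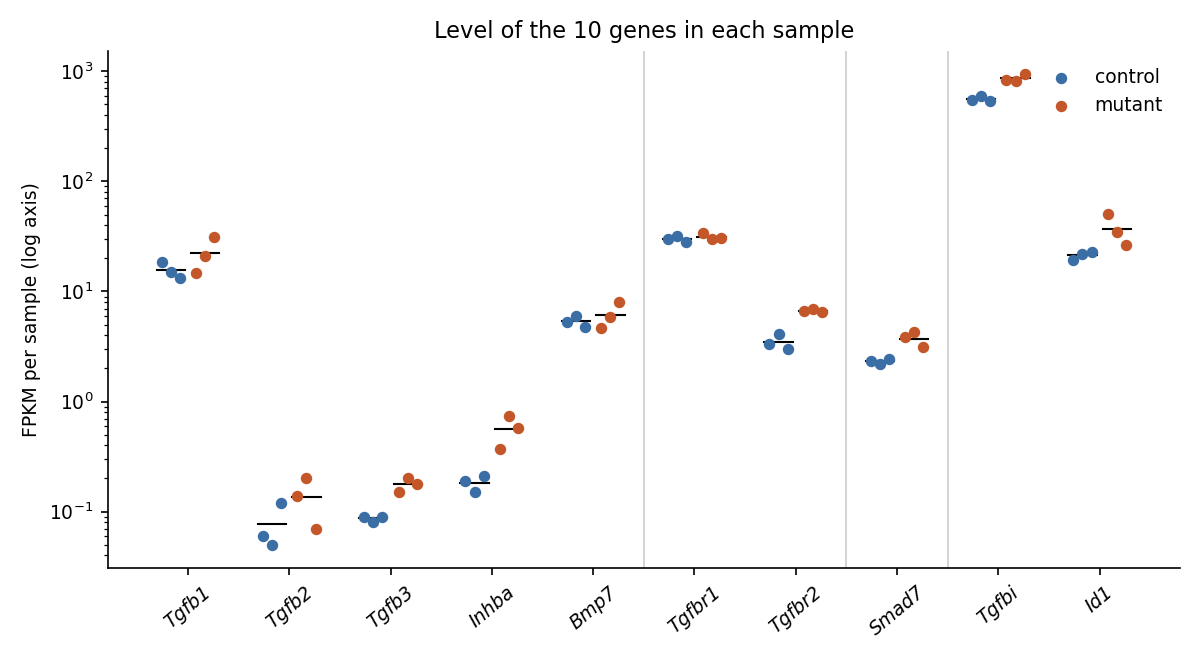
Each point is 1 sample and each black bar the mean of 3, in FPKM on a log axis, with ligands, receptors, *Smad7* and response genes set apart by grey lines. *Tgfbi* is the most abundant of the 10 in both genotypes, and the mutant points of *Tgfb3*, *Inhba*, *Tgfbr2*, *Smad7*, *Tgfbi* and *Id1* lie above all control points.

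In control epithelium the 10 genes spanned a wide range of FPKM, a scale that allows genes to be compared per length. The order from high to low was *Tgfbi* at 558 ± 34 (SD, n = 3), *Tgfbr1* at 30.1 ± 1.9, *Id1* at 21.3 ± 1.7, *Tgfb1* at 15.6 ± 2.8, *Bmp7* at 5.35 ± 0.59, *Tgfbr2* at 3.46 ± 0.56, *Smad7* at 2.34 ± 0.12, *Inhba* at 0.183 ± 0.031, *Tgfb3* at 0.0867 ± 0.0058 and *Tgfb2* at 0.0767 ± 0.038. Neighbours in this order had ranges that did not overlap, except *Tgfb3* and *Tgfb2*. In the mutant epithelium *Id1* stood above *Tgfbr1* and *Tgfbr2* above *Bmp7* by their means, and in both of these pairs the ranges overlapped, as they did for *Tgfbr1* and *Tgfb1* and for *Tgfb3* and *Tgfb2*.

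*Tgfbr2* encodes the type II receptor that binds TGF beta and recruits the type I receptor. It lies on chromosome 9 of GRCm38 from 116087695 to 116175363 (gene 21813), and its FPKM was 3.32, 4.08 and 2.98 in control samples and 6.65, 6.96 and 6.54 in mutant samples. The groups did not overlap, and the mutant samples lay close together. The mean rose from 3.46 ± 0.56 to 6.72 ± 0.22 (SD, n = 3), a log2 fold change of 0.96 (standard error 0.112, edgeR adjusted p = 0.000634), which was above that of 96.3% of the genes tested. *Tgfbr1*, which encodes the type I receptor kinase that signals to Smad2 and Smad3, lies on chromosome 4 from 47353222 to 47414926 (gene 21812). Its FPKM was 30.1, 31.9 and 28.2 in control samples and 34.1, 30.1 and 30.3 in mutant samples, so the groups overlapped. Its log2 fold change was 0.07 (standard error 0.0813, edgeR adjusted p = 0.639). The FPKM of *Tgfbr1* over that of *Tgfbr2* was 9.08, 7.83 and 9.46 in control samples and 5.13, 4.33 and 4.63 in mutant samples. The ratio was thus lower in every mutant sample than in any control sample, with means of 8.79 ± 0.85 and 4.70 ± 0.40 (SD, n = 3), and no test was run on it.

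*Tgfbi* encodes an extracellular matrix protein that is induced by TGF beta and binds collagens and integrins. It lies on chromosome 13 from 56609603 to 56639339 (gene 21810), and its FPKM was 545, 597 and 532 in control samples and 838, 821 and 940 in mutant samples. The groups were far apart relative to their spread, with means of 558 ± 34 and 866 ± 65 (SD, n = 3). The log2 fold change was 0.63 (standard error 0.0789, edgeR adjusted p = 0.000885). Counts behind this value were 27926 to 31233 in control samples and 43092 to 49827 in mutant samples, so counting error was small beside the spread between samples.

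The 250 bases before the annotated start are shown for the 2 receptor and matrix genes with the smallest adjusted p, and for *Tgfb1*, since its window holds the consensus of the factor that was deleted. The sequences are those of RefSeq on GRCm38.p6, 5′ to 3′ on the gene's strand, with matched letters in capitals. Promoters of *Tgfb1*, *Tgfb2*, *Tgfbr1*, *Tgfbr2*, *Inhba* and *Tgfbi* were matched by symbol.
Tgfbr2 (chr9:116175364-116175613, minus strand): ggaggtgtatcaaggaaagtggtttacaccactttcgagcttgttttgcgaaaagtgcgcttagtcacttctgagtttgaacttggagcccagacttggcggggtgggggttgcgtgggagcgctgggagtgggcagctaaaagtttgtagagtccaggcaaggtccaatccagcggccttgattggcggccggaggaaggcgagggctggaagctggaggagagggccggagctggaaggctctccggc
Tgfbi (chr13:56609336-56609585, plus strand): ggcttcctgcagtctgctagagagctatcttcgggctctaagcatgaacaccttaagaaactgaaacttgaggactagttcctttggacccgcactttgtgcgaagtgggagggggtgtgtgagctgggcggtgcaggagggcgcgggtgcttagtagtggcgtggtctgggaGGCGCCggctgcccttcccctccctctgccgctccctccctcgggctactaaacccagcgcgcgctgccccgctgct
Tgfb1 (chr7:25686752-25687001, plus strand): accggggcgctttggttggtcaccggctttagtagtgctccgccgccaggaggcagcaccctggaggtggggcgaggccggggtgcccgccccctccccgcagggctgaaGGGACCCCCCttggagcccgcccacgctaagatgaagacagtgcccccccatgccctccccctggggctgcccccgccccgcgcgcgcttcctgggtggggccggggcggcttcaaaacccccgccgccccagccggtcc

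The windows were searched on both strands for the Smad palindrome GTCTAGAC, the GC-rich Smad element GGCGCC, the AP-1 site TGANTCA and the κB consensus. Of 32851 promoter windows of this length, 0.167% held the palindrome, 9.59% the GC-rich element, 6.75% the AP-1 site and 7.25% the κB consensus. *Tgfbi* held 1 GC-rich element, which began at -77 from the RefSeq start (the deposited table puts the start of this gene a little further downstream), and *Tgfb1* held 1 κB match, which began at -140. *Tgfbr1* held a GC-rich element at -233 of 1 of its 2 starts. No match to these letters was found in the windows of *Tgfbr2*, *Tgfb2* and *Inhba*.

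*Smad7*, on chromosome 18 (gene 17131), encodes the inhibitory Smad that binds activated type I receptors of the TGF beta and BMP branches. Its FPKM was 2.36, 2.21 and 2.45 in control samples and 3.85, 4.24 and 3.12 in mutant samples. Every mutant sample exceeded every control sample. The mean rose from 2.34 ± 0.12 to 3.74 ± 0.57 (SD, n = 3), and the log2 fold change was 0.67 (standard error 0.136, edgeR adjusted p = 0.0111). Without control sample 2 the adjusted p was 0.058, and it ranged from 0.00153 to 0.058 over the alternatives.

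*Id1* is a direct target of the BMP Smads and encodes an inhibitor of basic helix-loop-helix transcription factors. It lies on chromosome 2 from 152736234 to 152738260 (gene 15901), and its FPKM was 19.5, 21.8 and 22.7 in control samples and 50.2, 34.8 and 26.5 in mutant samples. The mutant samples were all higher but wide apart, and mutant sample 1 was the highest. The mean rose from 21.3 ± 1.7 to 37.2 ± 12 (SD, n = 3), and the log2 fold change was 0.80 (standard error 0.203, edgeR adjusted p = 0.0302). The adjusted p was 0.1 without control sample 1, 0.108 without control sample 2, 0.0756 without control sample 3 and 0.0612 without mutant sample 2, and ranged from 0.000743 to 0.108 over the alternatives. Without mutant sample 1 the log2 fold change was 0.52. *S100a8* and *Dcn* had the same order among the mutant samples as *Id1*, and their part in the *Id1* result was not tested. *Dcn* was at 1.80, 0.96 and 0.39 FPKM in mutant samples and at most 0.08 FPKM in control samples. The second principal component over the genes tested had this order too, at 24.1, -9.53 and -20.6 in mutant samples.

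None of the other 3 *Id* genes passed as higher. *Id2*, the most abundant of the family here, had an FPKM of 153, 181 and 199 in control samples and 104, 115 and 98.7 in mutant samples. It fell without overlap, by 0.75 on the log2 scale (standard error 0.113, edgeR adjusted p = 0.00249). *Id4* had an FPKM of 7.12, 8.05 and 8.99 in control samples and 2.89, 4.46 and 4.85 in mutant samples, and fell by 0.99 on the log2 scale (standard error 0.185, edgeR adjusted p = 0.00752). *Id3* overlapped between the genotypes, at 4.30 to 5.68 FPKM in control and 4.5 to 6.16 FPKM in mutant samples. Its log2 fold change was 0.19 (standard error 0.181, edgeR adjusted p = 0.539). The share of *Id1* in the summed FPKM of the 4 genes was 10.5%, 10.1% and 9.68% in control samples and 30.7%, 21.9% and 19.5% in mutant samples. The sum itself was lower in every mutant sample, with means of 212 ± 25 and 153 ± 15 FPKM (SD, n = 3).

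**Figure D2:**
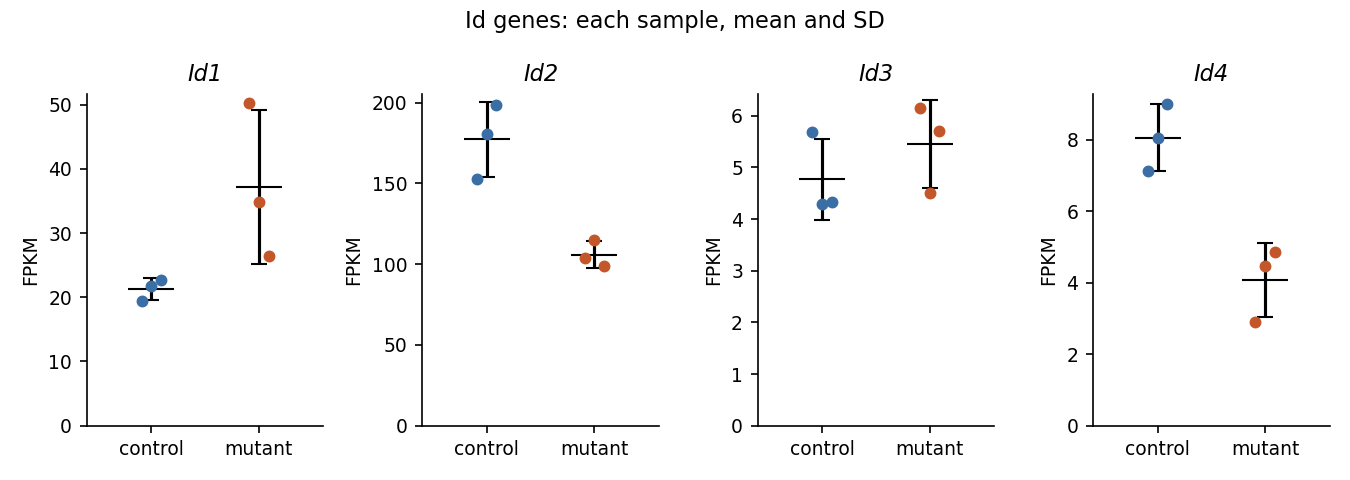
FPKM of *Id1*, *Id2*, *Id3* and *Id4* in each sample (points), with the mean and SD of 3 samples per genotype in black, on linear axes that start at 0. *Id1* is higher and *Id2* and *Id4* are lower in every mutant sample than in any control sample, whereas the points of *Id3* overlap.

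Among the ligands, *Tgfb1* made up nearly all of the TGF beta transcript in both genotypes. Its share of the summed FPKM of *Tgfb1*, *Tgfb2* and *Tgfb3* was 98.4% to 99.2% in control samples and 98.1% to 99.2% in mutant samples. *Tgfb1* lies on chromosome 7 from 25687002 to 25705077 (gene 21803), and its FPKM was 18.7, 14.9 and 13.3 in control samples and 14.8, 20.8 and 31.0 in mutant samples. Mutant sample 1 lay within the control range and the other mutant samples above it. The log2 fold change was 0.50 (standard error 0.224, edgeR adjusted p = 0.178), and *Tgfb1* did not pass. Without mutant sample 1 it was 0.72 with an adjusted p of 0.0174, and the adjusted p ranged from 0.0174 to 0.503 over the alternatives.

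*Tgfb3* and *Tgfb2*, the other TGF beta isoforms, were near the limit of measurement. *Tgfb3*, on chromosome 12 from 86056743 to 86079041 (gene 21809), had expected counts of 6, 5 and 6 in control samples and 10, 13 and 12 in mutant samples. The groups did not overlap, yet the log2 fold change of 1.02 had a standard error of 0.368 and an edgeR adjusted p of 0.101. Of its 50-base windows, 8.79% also occur in transcripts of other genes, mostly of *Gm48008*, which overlaps *Tgfb3* on the other strand. Of its exon bases, 12.4% overlap genes on the other strand, whose reads cannot be told apart without strand. These values thus count in part the same overlap. *Tgfb2*, on chromosome 1 from 186622787 to 186707033 (gene 21808), had counts of 6, 5 and 11 in control samples and 13.0, 19.9 and 7 in mutant samples. These groups overlapped, and the log2 fold change was 0.85 (standard error 0.494, edgeR adjusted p = 0.3). Neither gene passed at these counts.

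*Inhba* encodes the activin beta A subunit and lies on chromosome 13 from 15944764 to 16032275 (gene 16323). Its expected counts were 20.5, 16.7 and 23.0 in control samples and 27.1, 36.1 and 40 in mutant samples. The groups did not overlap, but the log2 fold change of 0.77 (standard error 0.265) had an edgeR adjusted p of 0.0889. Its FPKM was 0.19, 0.15 and 0.21 in control samples and 0.37, 0.74 and 0.57 in mutant samples, which is a wider gap than in the counts. The count divided by the FPKM and the total of a sample gives the transcript length used by the estimate. This length was 5477 to 5694 bases in control samples and 2497 to 3752 bases in mutant samples, and the table lists 12 transcripts of the gene. For *Tgfbr2*, by comparison, it was 4760 to 4779 bases in control and 4765 to 4789 bases in mutant samples. On FPKM, limma gave *Inhba* an adjusted p of 0.0277 with a pseudocount of 1 and 0.0163 with 0.1, and the range over the alternatives was 0.0163 to 0.268.

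**Figure D3:**
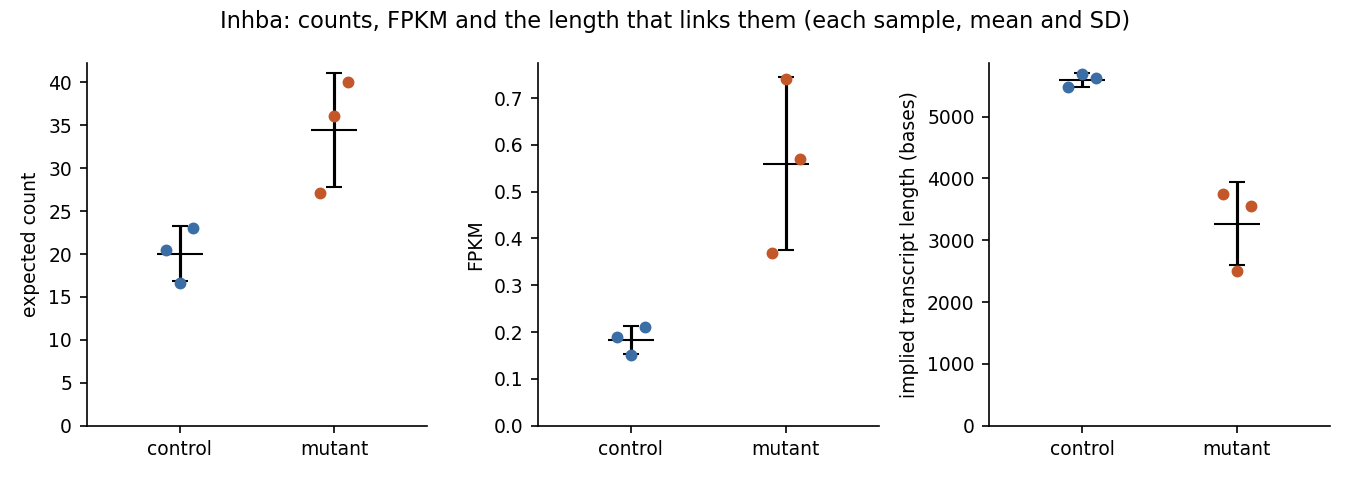
Expected count, FPKM and implied transcript length of *Inhba* in each sample (points), with the mean and SD of 3 samples per genotype in black, on axes that start at 0. Counts and FPKM are higher and the implied length is lower in all 3 mutant samples than in the control samples.

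*Bmp7*, on chromosome 2 from 172868012 to 172940321 (gene 12162), encodes a BMP with roles in eye development and epithelial tissues and was the most abundant by FPKM of the BMP and GDF ligands examined. Its FPKM was 5.30, 5.96 and 4.78 in control samples and 4.65, 5.85 and 8 in mutant samples. The lowest mutant sample lay below all control samples and the highest above them. The log2 fold change was 0.20 (standard error 0.169, edgeR adjusted p = 0.481), and without mutant sample 3 it was -0.02. The groups thus differed by less than the spread between samples.

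**Figure D4:**
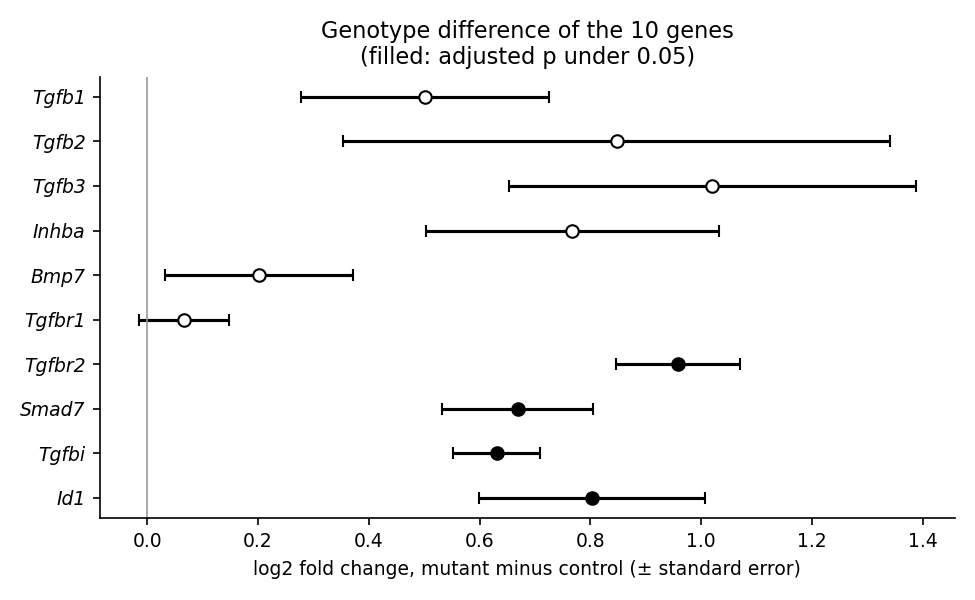
Log2 fold change of the 10 genes, mutant minus control, with the standard error as bars; filled points passed an adjusted p under 0.05 and open points did not. All 10 points lie above 0, from 0.07 for *Tgfbr1* to 1.02 for *Tgfb3*, and the filled points are *Tgfbr2*, *Smad7*, *Tgfbi* and *Id1*.

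Another 108 genes of the pathway were examined in the same fit, of which 99 were in the table and 64 passed the filter on low counts. Of these 64, 14 rose, 5 fell and 45 did not pass, beside 7.82% of all genes as higher and 5.42% as lower. Their median log2 fold change was 0.07. These genes too were chosen with earlier results of these data known, and some of the lists below share genes. The study's thresholds were met by 4, among them *Ltbp1*, *Klf10* and *Pmepa1*.

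Of the other ligands, 3 of the TGF beta and activin branch and 3 of the BMP and GDF branch could be tested. Among these 1 rose, beside 7.82% of all genes. It was *Bmp3*, which encodes a BMP known to oppose other BMPs, at 0.64, 0.62 and 0.48 FPKM in control samples and 0.87, 1.19 and 0.93 FPKM in mutant samples (log2 fold change 0.79, standard error 0.181, edgeR adjusted p = 0.0203). Its adjusted p was 0.0637 without control sample 2, 0.0788 without control sample 3 and 0.0706 without mutant sample 2, in a range of 0.0144 to 0.0788 over the alternatives. *Lefty1*, an inhibitor of Nodal, had a log2 fold change of -0.12 (standard error 0.23) and *Bmp6* of 0.09 (standard error 0.158), and neither passed.

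Of 12 other receptors and co-receptors tested, 1 rose and 2 fell, beside 7.82% and 5.42% of all genes. *Acvr1b*, the activin type I receptor, was at 24.1, 29.5 and 25.6 FPKM in control samples and at 22.8, 19.95 and 19.4 FPKM in mutant samples. It fell by 0.35 on the log2 scale (standard error 0.1, edgeR adjusted p = 0.0477). The BMP co-receptor genes moved in opposite directions, since *Rgma* rose from 8.48 ± 1.0 to 11.2 ± 0.96 FPKM and *Rgmb* fell from 8.61 ± 0.44 to 6.73 ± 0.80 FPKM (SD, n = 3). Their log2 fold changes were 0.40 (standard error 0.102, edgeR adjusted p = 0.0302) and -0.40 (standard error 0.0899, edgeR adjusted p = 0.0186). None of these 3 calls held in all refits, and over the alternatives the adjusted p ranged from 0.0148 to 0.171 for *Acvr1b*, from 0.014 to 0.107 for *Rgma* and from 0.00773 to 0.0708 for *Rgmb*. The highest value came without control sample 2 for *Acvr1b* and *Rgma*, and from limma on FPKM with a pseudocount of 1 for *Rgmb*. The calls of *Acvr1b* and *Rgma* were also lost without control sample 3, mutant sample 2 or mutant sample 3, and that of *Rgmb* without any 1 control sample, at adjusted p values of 0.06 to 0.0648.

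Of 6 other Smad genes tested, 1 rose, 0 fell and 5 did not pass, beside 7.82% of all genes as higher and 5.42% as lower. *Smad1*, a transducer of BMP signals, rose from 6.10 ± 0.51 to 8.27 ± 0.40 FPKM (SD, n = 3; log2 fold change 0.44, standard error 0.0906, edgeR adjusted p = 0.0121). Its adjusted p was 0.0528 without control sample 1 and 0.0611 without control sample 3, in a range of 0.0072 to 0.0611 over the alternatives. *Smad4*, the common partner, had a log2 fold change of 0.28 (standard error 0.085, edgeR adjusted p = 0.056) and *Smad3* of 0.22 (standard error 0.0834, edgeR adjusted p = 0.111), and neither passed. *Smad4* passed with DESeq2 (adjusted p = 0.0314), with limma and without mutant sample 3 (adjusted p = 0.0342), in a range of 0.0257 to 0.183.

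Of 12 genes for extracellular inhibitors, latency and activation, 4 rose and 1 fell, beside 7.82% and 5.42% of all genes. *Ltbp1*, which encodes a protein that anchors latent TGF beta in the matrix, had expected counts of 20.01, 20.01 and 20.99 in control samples and 270, 267 and 207 in mutant samples. The counts were thus similar within each genotype and far apart between them, and the log2 fold change was 3.60 (standard error 0.185, edgeR adjusted p = 9.66e-06). The share of *Ltbp1* in the summed FPKM of *Ltbp1* to *Ltbp4* was 0.5% to 0.668% in control samples and 6.51% to 10.1% in mutant samples. *Ltbp3* and *Ltbp4*, which were more abundant, overlapped between the genotypes, with log2 fold changes of -0.08 and -0.20. Among the mutant samples *Ltbp1* had the same order in FPKM as *S100a8* and *Dcn*, at 2.44, 2.41 and 1.80, and the part of those markers was not tested. The second principal component had this order too.

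*Itgb6*, which encodes the beta subunit of an integrin that activates latent TGF beta in epithelia, was at 3.98, 3.41 and 3.67 FPKM in control samples and at 7.41, 8.54 and 4.72 FPKM in mutant samples. It rose by a log2 fold change of 0.90 (standard error 0.194, edgeR adjusted p = 0.0145), and the adjusted p was 0.0796 without control sample 2 and 0.057 without control sample 3, within a range of 5.54e-05 to 0.0796 over the alternatives. *Furin*, a protease that cuts the precursors of these ligands, rose from 18.8 ± 0.31 to 26.8 ± 2.7 FPKM (SD, n = 3; log2 fold change 0.51, standard error 0.0824, edgeR adjusted p = 0.00357).

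*Fst* encodes follistatin, which binds and neutralises activin. Its expected counts were 4, 3 and 1 in control samples and 159, 21 and 37 in mutant samples. *Fst* thus passed the filter on low counts through the mutant samples only. Mutant sample 1 held most of the mutant counts, but each mutant sample exceeded each control sample. The ratio of summed counts was 27.1 (exact 95% interval 13.5 to 63.5, for counting error only), and the edgeR adjusted p was 0.01. Without mutant sample 1 the log2 fold change was 3.37 instead of 4.70, with an adjusted p of 0.00254. Without control sample 2 or 3 the adjusted p was 0.0592 or 0.0525, and it ranged from 6.45e-08 to 0.0838 over the alternatives. *Nbl1*, which encodes a BMP antagonist, fell by 0.85 on the log2 scale (standard error 0.232, edgeR adjusted p = 0.0395), and its call was lost with DESeq2 (adjusted p = 0.0628) and without control sample 1, 2 or 3 (0.106, 0.124 and 0.0975) or mutant sample 1 or 3 (0.0736 and 0.0895), in a range of 0.0191 to 0.124. *Twsg1*, a BMP modulator and the most abundant gene of this list, had a log2 fold change of 0.22 (standard error 0.0851) and did not pass.

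Of 15 intracellular regulators, 3 rose and 0 fell, beside 7.82% and 5.42% of all genes. *Pmepa1*, a TGF beta target whose product restrains Smad signaling, was at 1.91, 1.89 and 1.56 FPKM in control samples and at 4, 4.06 and 4.95 FPKM in mutant samples. The groups did not overlap, and the log2 fold change was 1.27 (standard error 0.124, edgeR adjusted p = 0.000251). *Skil*, which encodes the Smad corepressor SnoN, was at 5.54, 6.27 and 5.34 FPKM in control and 11.1, 8.77 and 6.37 FPKM in mutant samples (log2 fold change 0.63, standard error 0.174, edgeR adjusted p = 0.0423). The call of *Skil* was lost without control sample 1, 2 or 3 (adjusted p = 0.12, 0.106 and 0.137), without mutant sample 1 or 2 (0.0631 and 0.101) and with limma, in a range of 0.00214 to 0.137. The ubiquitin ligase gene *Nedd4l* rose by a log2 fold change of 0.51 (standard error 0.0744, edgeR adjusted p = 0.00201). The most abundant genes of this list, *Usp15* and *Ppm1a*, had log2 fold changes of -0.08 and -0.10 and did not pass.

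Besides *Tgfbi* and *Smad7*, 12 response genes of the TGF beta and activin branch could be tested, and 6 rose while 0 fell. Among all genes, 7.82% passed as higher and 5.42% as lower. *Klf10*, *Snai2*, *Bhlhe40*, *Pmepa1* and *Skil* were among the 6 that rose, and the median log2 fold change of the 12 was 0.41. *Pmepa1* and *Skil* are also counted among the intracellular regulators. *Klf10*, an early TGF beta response gene, was at 6.27, 5.55 and 4.70 FPKM in control samples and at 30.5, 26.1 and 22.2 FPKM in mutant samples (log2 fold change 2.25, standard error 0.14, edgeR adjusted p = 2.36e-05). *Snai2*, which encodes the transcription factor Slug, rose from 9.90 ± 0.29 to 19.2 ± 2.9 FPKM (SD, n = 3; log2 fold change 0.95, standard error 0.114, edgeR adjusted p = 0.000719). *Bhlhe40* rose by a log2 fold change of 0.45 (standard error 0.0795, edgeR adjusted p = 0.00569). *Cdkn1a*, which encodes a cell cycle inhibitor, had a log2 fold change of 0.23 (standard error 0.101) and did not pass. Besides *Id1* and *Smad7*, 6 response genes of the BMP branch could be tested. Of these *Id2* and *Id4* fell, beside 5.42% of all genes, none rose and 4 did not pass. Among the mutant samples, *Klf10* and *Skil* had the same order as *S100a8* and *Dcn*, with mutant sample 1 the highest, and the part of those markers was not tested. The order was also that of the second principal component, so it is not particular to these genes. Many of these response genes are also induced by other signals.

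**Figure D5:**
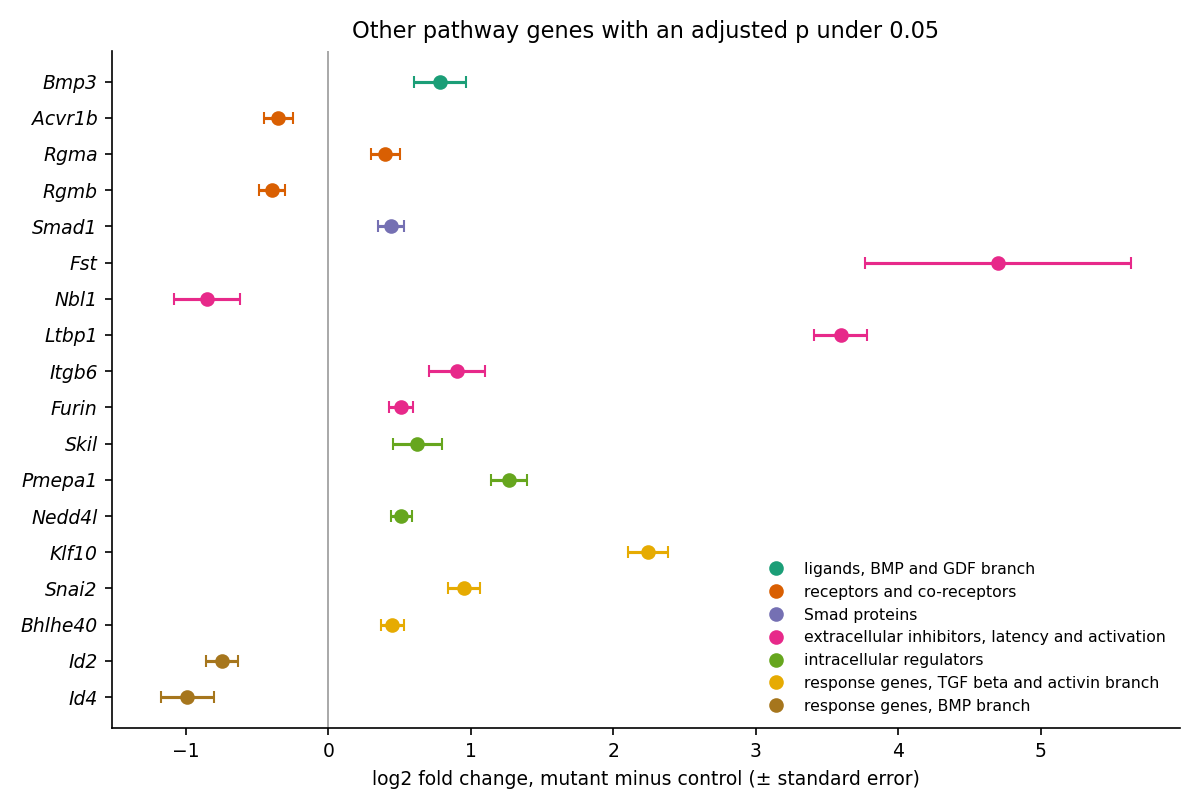
Log2 fold change, mutant minus control, of 18 of the 19 other pathway genes with an adjusted p under 0.05, with the standard error as bars and colour for the list each gene belongs to (a gene of 2 lists is shown under the first). *Fst* and *Ltbp1* lie farthest to the right, and *Acvr1b*, *Rgmb*, *Nbl1*, *Id2* and *Id4* lie below 0.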

How the data were processed

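RNA of the corneal epithelial layer was taken from 3 independent biological samples per genotype. The authors depleted rRNA, ran single-end sequencing on a BGISEQ-500, filtered them with SOAPnuke, aligned them with Bowtie2 2.2.5 and estimated abundance with RSEM 1.2.12. The submitters' processing notes name mm9 and the labels a TruSeq kit, but the coordinates of the deposited table are those of GRCm38. The deposited expected counts are neither normalized nor pooled; 31.5% to 32.2% of a sample's values were not whole. The authors' FPKM values are scaled by transcript length and sample total. The authors' deposited log2 fold changes and their p-values and q-values, from their own DEGseq comparison of the genotypes, were not used.

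Samples were grouped by genotype as labelled. Expected counts were rounded and fitted with edgeR 4.0.16 (R 4.3.3; TMM, filterByExpr min.count 10, min.total.count 15, quasi-likelihood test). P-values were adjusted over 12667 genes by the Benjamini-Hochberg method. Standard errors were taken as the log2 fold change divided by the root of F. Ratios of low counts have exact Clopper-Pearson intervals. An exact two-sided permutation test of 3 against 3 samples reaches 0.1 at the least. Depth was similar in all samples, and 3 counts equal 0.152 to 0.154 CPM. Alternatives were DESeq2 1.42.0, upper-quartile scaling, other filters, limma 3.58.1 on log2(FPKM + 1) and log2(FPKM + 0.1), a replicate block, each sample left out, and the study's thresholds. The tests were checked on simulated data.

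The 10 genes and the pathway lists were chosen with earlier results of these data known. Named pathway genes are those with an adjusted p under 0.05 and the 2 most abundant genes of each list; *Id3*, *Ltbp3*, *Ltbp4* and *Tdgf1* were added after their values were seen. The results of some genes that this rule would name are not given.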

Additional observations from a re-analysis of the deposited data

How the results depend on the processing

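Of 128 refits of the log2 fold changes of the 10 genes, 119 kept direction and side of the threshold, 5 lost the call, 3 gained one and 1 changed sign; of 349 refits of the named pathway genes, the numbers were 304, 41, 4 and 0. *Tgfbr2* (0.80 to 1.09) and *Tgfbi* (0.58 to 0.67) stayed past the threshold in all of their 13 refits. *Bmp7* ranged from -0.016 (without mutant sample 3) to 0.36 with single samples left out. Leaving out 1 sample gave 2 to 5 calls among the 10 genes (2 without control sample 2), 10 to 19 among the other pathway genes (11 without control sample 2 and 10 without control sample 3) and 857 to 1869 among all genes (857 without control sample 2 and 999 without control sample 3). Fewer samples entered each of these fits. The study's thresholds left 0, 4 and 173 calls. *Tgfb2* and *Tgfb3* did not reach 10 counts in each sample and so have no value under that filter.

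The replicate numbers were treated as labels only. Deviations of same-numbered samples correlated at 0.019, 0.048 and -0.046, and those of differently numbered samples at -0.077 to 0.064. With 3 samples per group these values cannot show whether samples were matched. A replicate block gave 4 calls among the 10 genes, 18 among the other pathway genes and 1419 among all genes, and *Nbl1* and *Acvr1b* then did not pass. Low counts limit *Tgfb2*, *Tgfb3* and *Inhba*.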

Other observations

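*Tdgf1*, which encodes the Nodal co-receptor Cripto, was too low to pass the filter and was picked after its values were seen. Its expected counts were 0, 0 and 0 in control samples and 3, 25 and 22 in mutant samples. Against an assumed 3 counts over the control group, the mutant sum of 50 counts was 16.6-fold higher. This ratio leaves out the counting error of the mutant sum and the spread between mutant samples. Of its 50-base windows, 8.86% also occur in GENCODE transcripts of another gene, mostly the pseudogene *Tdgf1-ps1*.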
